A study of Mus musculus with 12 samples.

Results

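The ADAMTS proteases, the tissue inhibitors of metalloproteinases (TIMPs) and the membrane protease Mmp14 were followed in whole mouse kidneys 4 h after a period of ischemia. Of the 18194 genes with a probe set of their own in the series, 9 were taken by name: Adamts1, Adamts4, Adamts5, Adamts9, Adamts15, Mmp14, Timp1, Timp2 and Timp3. A probe set was a member if the platform annotation named exactly 1 gene and that gene was one of the 9. This gave 25 probe sets, of which 23 exceeded the 40th percentile of their array on at least 3 of 12 arrays, and 0 probe sets named a member among several genes.

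The study crossed genotype with surgery in 8-week-old male mice, and 6 mice of each genotype were used. In TLR4 null mice (TLR4-/-, strain C57BL/10ScNJ), 3 kidneys were ischemic and 3 were sham. In wild-type (WT) mice (strain C57BL/10), 3 kidneys were ischemic and 3 were sham. Every mouse, sham mice included, first lost its right kidney under isoflurane anaesthesia. Ischemic kidneys had the pedicle of the remaining left kidney clipped for 23 min, sham kidneys had the clip laid under the pedicle, and all were taken at 4 h. TLR4 is a receptor of innate immunity, and the design asks how kidneys that lack it respond to ischemia. The TLR4 null mice are a substrain and not littermates of the WT mice, so genotype and substrain cannot be told apart.

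ADAMTS proteases are secreted metalloproteinases with thrombospondin repeats that cut large matrix proteoglycans such as versican and aggrecan. TIMPs bind the active site of metalloproteinases and block it, and Timp3 is the family member best known for blocking ADAMTS enzymes as well as matrix metalloproteinases. Mmp14 sits in the cell membrane, cuts collagen and, together with TIMP2, brings pro-MMP2 into its active form.

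Values were the authors' MAS5 signal intensities on a linear scale, 1 array per kidney, with a median signal of 61.3 to 77.6 per array. Differences were taken on log2(signal + 15), which understates folds of dim probe sets, and each gene was tested through its brightest probe set with limma over 14316 genes. A gene was called where its adjusted p was under 0.05. The Tlr4 probe set with the clearest difference had a TLR4 null minus WT difference of -2.81 ± 0.32 log2 units (SE) in ischemic kidneys and -2.43 ± 0.32 in sham kidneys (limma, adjusted p = 0.00217 and 0.00738 over all probe sets), as the labels give it. The other Tlr4 probe set past the filter gave -1.21 ± 0.44 and -1.01 ± 0.44 in that order and did not pass (limma, adjusted p = 0.333 and 0.556). All 8 kidney tubule markers were measured, and their summed signal overlapped between groups: 77669 to 90290.5 in TLR4 null ischemic, 85173 to 93889.8 in TLR4 null sham, 78915 to 92939 in WT ischemic and 75179 to 91863 in WT sham kidneys. Kap and Umod carry much of that sum, and 1 of the 8, the endocytic receptor Lrp2, was lower after ischemia, by -0.52 ± 0.098 log2 units in TLR4 null and -0.33 ± 0.098 in WT kidneys. Its WT call held in 19 of 25 alternatives and was lost without WT ischemic replicate 1 or 3 or WT sham replicate 1 or 3 (adjusted p = 0.0650 to 0.1002). Precision is set by the 3 arrays in each group.

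At 4 h of reperfusion 3 of the 9 genes, Adamts1, Adamts4 and Timp1, had risen in both genotypes, and Adamts9 had risen in WT kidneys. Adamts4 passed the filter only through its ischemic arrays, where it was high, so its calls and its place in the counts are description only. In TLR4 null kidneys Adamts5 and Timp2 had fallen. In TLR4 null kidneys 3 of the 9 were thus higher and 2 lower, against a background of 21.6% of all genes called, 9.86% higher and 11.7% lower. In WT kidneys 4 were higher and 0 lower, against 19.7% of all genes called, 9.18% higher and 10.5% lower. Over all genes in WT kidneys this was 1314 higher and 1501 lower, and with median scaling it was 1241 higher and 548 lower, with which the 4 members and also Mmp14 passed (adjusted p = 0.0494). In TLR4 null kidneys it was 1412 higher and 1676 lower, and with median scaling 1100 higher and 920 lower. The median difference of the 9 genes was 0.17 log2 units in TLR4 null and 0.34 in WT kidneys, beside -0.07 and -0.09 over all 14316 genes. The 9 genes were chosen with earlier results of these data known. Their counts and medians beside all genes, here and below, are therefore no test of the set. In whole kidneys fewer cells of a type and less RNA per cell cannot be told apart.

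**Figure D1:**
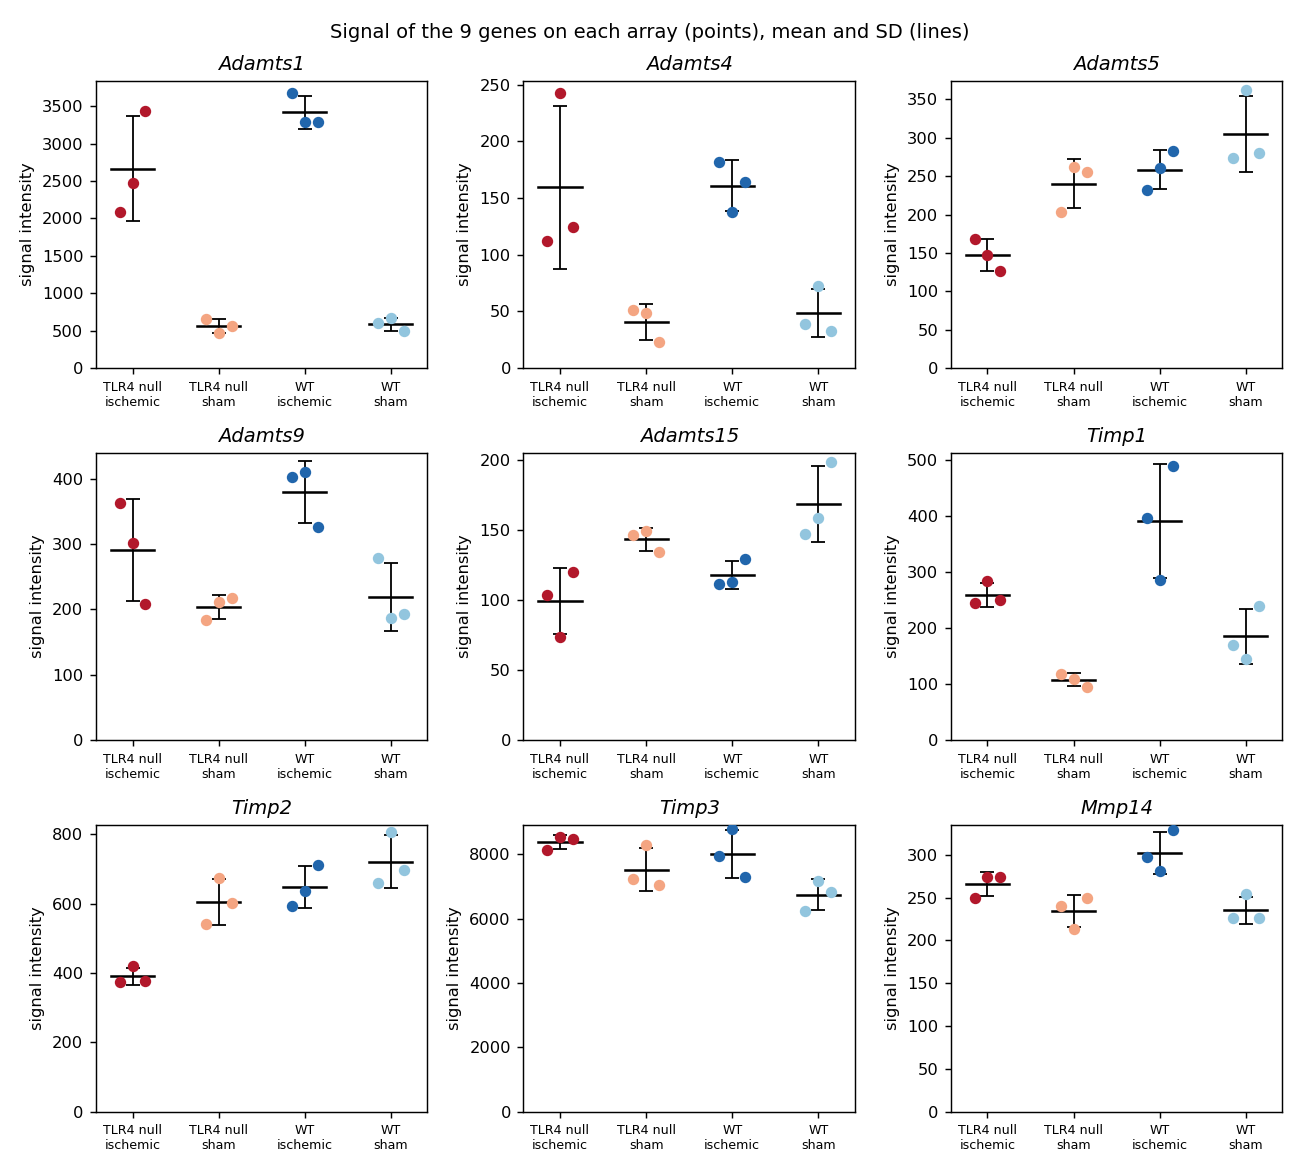
Signal intensity (linear axis from 0) of the probe set standing for each of the 9 genes, with 1 point per array and the mean and SD of each group (n = 3). The ischemic arrays lie above the sham arrays of the same genotype for Adamts1, Adamts4, Timp1 and Mmp14 in both genotypes and for Adamts9 and Timp3 in WT kidneys.

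Adamts1, a secreted protease of versican and aggrecan that mice need for normal kidney and urinary tract development, had the strongest response of the 9. Its signals were 2085, 2472 and 3439 in TLR4 null ischemic kidneys, against 659.6, 468 and 559 in TLR4 null sham kidneys. The WT ischemic kidneys gave 3674, 3291 and 3283, against 599, 670.2 and 497 in WT sham kidneys. No ischemic array overlapped a sham array in either genotype. The difference was 2.20 ± 0.16 log2 units (SE) in TLR4 null kidneys (4.59-fold, adjusted p = 2.96e-07) and 2.52 ± 0.16 in WT kidneys (5.72-fold, adjusted p = 8.89e-08). By size of the rise Adamts1 stood at place 60 of 14316 genes in TLR4 null and at place 49 in WT kidneys. Its replicates were wider apart in TLR4 null ischemic kidneys (SD 697 around a mean of 2665) than in WT ischemic kidneys (SD 223 around a mean of 3416).

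The RefSeq promoter table (GRCm38.p6) held 6 of the 9 genes, all but Adamts4, Adamts5 and Adamts15. The 250 bases before the start of Adamts1 are shown because this gene had the strongest response. They lie at chr16:85803114-85803363 on the minus strand and are 65.6% G or C, where the median promoter of the table has 52.4%. Capitals mark TATAAA, whose first base is at position -32 from the start, a motif held on the gene strand by 8.32% of 32851 promoters and by 1 of the 6.
Adamts1: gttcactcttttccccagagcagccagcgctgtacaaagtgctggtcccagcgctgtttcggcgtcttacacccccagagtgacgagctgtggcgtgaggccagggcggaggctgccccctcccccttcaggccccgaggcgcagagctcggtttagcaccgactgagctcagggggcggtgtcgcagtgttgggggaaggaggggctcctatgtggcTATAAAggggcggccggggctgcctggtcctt

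Adamts4, an aggrecanase, was a dim gene that rose in both genotypes. Its signals were 112, 242 and 124 in TLR4 null ischemic kidneys, against 51.7, 48.3 and 22.8 in TLR4 null sham kidneys. In WT ischemic kidneys they were 182, 137 and 164, against 39.3, 72.4 and 33.0 in WT sham kidneys. The ischemic and sham arrays did not overlap, and the difference was 1.61 ± 0.31 log2 units in TLR4 null (adjusted p = 0.00163) and 1.52 ± 0.31 in WT kidneys (adjusted p = 0.00259). Of the 6 sham signals 4 lay under the 40th percentile of their array (40.3 to 51.7 over the arrays), so the sham level was poorly measured and the size depended on the pseudocount. With a pseudocount of 60 the difference was 1.09 log2 units in TLR4 null and 1.04 in WT kidneys, and with 1 it was 1.93 and 1.79 in that order. All 25 alternatives kept both calls. As the gene passed the filter only through its ischemic arrays, this is no separate support for the rise. A second probe set of Adamts4 had signals of 126, 158 and 119 in TLR4 null ischemic kidneys, against 10.4, 13.9 and 18.7 in TLR4 null sham kidneys. It had 131, 131 and 148 in WT ischemic kidneys, against 9.79, 47.6 and 4.26 in WT sham kidneys. It exceeded the 40th percentile on the 6 ischemic arrays and 1 sham array and so also passed the filter through the ischemic arrays. No size is given for this second probe set.

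Adamts9, a protease of versican and aggrecan, was called in WT kidneys. Its signals were 363, 302 and 208 in TLR4 null ischemic kidneys, against 183, 211 and 217 in TLR4 null sham kidneys. The signals in WT ischemic kidneys were 403, 410.4 and 326, against 279, 186 and 193 in WT sham kidneys. The groups overlapped in TLR4 null kidneys through replicate 3 of the ischemic ones and did not overlap in WT kidneys. The difference was 0.46 ± 0.19 log2 units in TLR4 null (adjusted p = 0.104) and 0.77 ± 0.19 in WT kidneys (adjusted p = 0.00941). Without replicate 3 of the TLR4 null ischemic kidneys the TLR4 null value was 0.67 and passed (adjusted p = 0.0144), and without replicate 1 it was 0.29 (adjusted p = 0.368); it passed in 2 of 25 alternatives. Of its other probe sets, one gave 0.40 ± 0.18 in TLR4 null and 0.73 ± 0.18 in WT kidneys, where it passed (adjusted p = 0.0103 over all probe sets), and the dimmer one gave -0.018 ± 0.26 and 0.44 ± 0.26 and passed in neither.

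Adamts5, the other main aggrecanase, lies next to Adamts1 on chromosome 16, with no other coding gene between them in RefSeq (GRCm38.p6), and differed in the opposite direction. Its signals were 169, 148 and 126 in TLR4 null ischemic kidneys, against 204, 262 and 255 in TLR4 null sham kidneys. WT ischemic kidneys had signals of 233, 261 and 283, against 274, 362 and 280.02 in WT sham kidneys. The arrays were apart in TLR4 null kidneys and overlapped in WT kidneys. Adamts5 fell by 0.65 ± 0.15 log2 units in TLR4 null kidneys (adjusted p = 0.00620, called in 25 of 25 alternatives), and the WT difference of -0.22 ± 0.15 did not pass (adjusted p = 0.354, called in 0 of 25). Its probe sets did not all follow this order. One gave -0.66 ± 0.19 in TLR4 null and 0.059 ± 0.19 in WT kidneys, and another gave -0.36 ± 0.18 in TLR4 null and -0.55 ± 0.18 in WT kidneys. Only the first of these passed, in TLR4 null kidneys (adjusted p = 0.0259), against 16.7% of all probe sets called there and 15.6% in WT kidneys. Some macrophage and fibroblast markers differed in the same comparison. C1qa (-0.66 ± 0.13), C1qb (-0.53 ± 0.12) and Col1a2 (-0.58 ± 0.19) were lower in TLR4 null ischemic than in TLR4 null sham kidneys, and Cd68 was higher (1.02 ± 0.19). Of 7 macrophage markers 1 was called higher and 2 lower, and of 7 fibroblast and pericyte markers 1 lower, beside 21.6% of all genes called. In WT kidneys Cd68 was called higher too, and the macrophage marker Csf1r lower (in 23 of 25 alternatives). Col1a2 was called in 16 of 25 alternatives. It lost its call without TLR4 null ischemic replicate 2 (-0.37, adjusted p = 0.173) or any 1 of the 3 TLR4 null sham replicates (adjusted p = 0.0615 to 0.114). The part of these markers in the fall of Adamts5 was not tested.

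Adamts15, a versican-cutting protease best studied in muscle, was lower on every ischemic array of both genotypes but did not pass. Its signals were 104, 73.5 and 119.9 in TLR4 null ischemic kidneys, against 146, 149 and 134 in TLR4 null sham kidneys. In WT ischemic kidneys they were 111, 113 and 129, against 147, 158 and 199 in WT sham kidneys. The difference was -0.49 ± 0.18 log2 units in TLR4 null (adjusted p = 0.0639) and -0.46 ± 0.18 in WT kidneys (adjusted p = 0.0907). Without replicate 3 of the TLR4 null ischemic kidneys it passed in TLR4 null kidneys (-0.62, adjusted p = 0.0283), and without replicate 2 it was -0.32 (adjusted p = 0.247). It passed in 2 of 25 alternatives in TLR4 null and 1 of 25 in WT kidneys. Groups apart from each other were common: in TLR4 null kidneys they were so for 34% of all genes, 13.9% with the ischemic arrays above and 20.1% below, and in WT kidneys for 39.3%, 15.6% above and 23.7% below.

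Mmp14 had a small positive difference in both genotypes that did not pass. Its signals were 249.89, 274 and 274 in TLR4 null ischemic kidneys, against 240.2, 213 and 249.88 in TLR4 null sham kidneys. The WT ischemic signals were 297, 281 and 329, against 226, 254 and 227 in WT sham kidneys. The arrays did not overlap, but in TLR4 null kidneys the lowest ischemic and the highest sham signal were all but equal. The difference was 0.17 ± 0.12 log2 units in TLR4 null (adjusted p = 0.342) and 0.34 ± 0.12 in WT kidneys (adjusted p = 0.0517). In WT kidneys it passed in 7 of 25 alternatives, among them those without TLR4 null ischemic replicate 3 (adjusted p = 0.0498) or TLR4 null sham replicate 2 (adjusted p = 0.0487), which enter only through the pooled spread. Its other probe sets gave 0.84 ± 0.38 and -0.32 ± 0.22 in TLR4 null and 0.25 ± 0.38 and -0.012 ± 0.22 in WT kidneys, and none of these passed.

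Timp1, a soluble inhibitor of most matrix metalloproteinases and a widely used marker of tissue injury, rose in both genotypes. Its signals were 244, 283 and 249 in TLR4 null ischemic kidneys, against 118, 109.5 and 95.01 in TLR4 null sham kidneys. WT ischemic kidneys measured 397, 285 and 489, against 170.3, 145 and 239.8 in WT sham kidneys. Ischemic and sham arrays did not overlap within a genotype. The rise was 1.16 ± 0.19 log2 units in TLR4 null (2.24-fold, adjusted p = 0.000542) and 1.02 ± 0.19 in WT kidneys (2.02-fold, adjusted p = 0.00167), and it was called in 25 of 25 alternatives in each. In RefSeq the gene lies within Syn1 on the X chromosome. Among ischemic kidneys the SD was 21.3 in TLR4 null and 102 in WT, so the WT replicates were farther apart.

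The upstream sequence of Timp1 is shown as that of the other riser in both genotypes with an entry. It lies at chrX:20869916-20870165 on the plus strand and is 54.4% G or C. Capitals mark ACGTG, 1 form of the core of hypoxia response elements, with its first base at position -82. The form GCGTG was not searched. The motif ACGTG, searched on both strands, was in 19.6% of all promoters and in 2 of the 6, Timp1 and Mmp14 (position -48).
Timp1: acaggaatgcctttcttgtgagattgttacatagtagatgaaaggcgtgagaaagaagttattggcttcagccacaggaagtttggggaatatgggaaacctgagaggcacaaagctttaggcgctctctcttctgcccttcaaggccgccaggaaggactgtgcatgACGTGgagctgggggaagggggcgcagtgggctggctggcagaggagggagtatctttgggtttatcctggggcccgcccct
The AP-1 motif TGANTCA was in 0 of the 6 windows (7.81% of all promoters) and the CRE TGACGTCA in 0 (1.79%), on both strands. The variant TGAGTAA was in 1 of the 6 (2.68% of all promoters), that of Timp1, with its first base at position 27 after the start; it is in capitals in these 30 bases at chrX:20870181-20870210.
Timp1 site: cggtgggtggaTGAGTAAtgcgtccaggaa
The motif GCGNGGGCG, searched on both strands, was in 1 of the 6, Mmp14 (5.55% of all promoters), the NF-kB motif in 1, Adamts9 (8.46%), and the CArG box in 0 (1.63%). A match of letters describes the window and shows no binding.

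Timp2, an inhibitor that also takes part in the activation of MMP2 at the cell surface, fell in TLR4 null kidneys. Its signals were 374, 419 and 378 in TLR4 null ischemic kidneys, against 539.6, 672 and 600.3 in TLR4 null sham kidneys. In WT ischemic kidneys they were 593, 636 and 712, against 658, 805 and 697 in WT sham kidneys. The TLR4 null groups were well apart and the WT groups overlapped. Timp2 fell by 0.61 ± 0.11 log2 units in TLR4 null kidneys (adjusted p = 0.00123, called in 25 of 25 alternatives, with -0.395 for the mean of its probe sets), while the WT difference was -0.15 ± 0.11 (adjusted p = 0.401, called in 0 of 25). All 5 of its probe sets past the filter had a negative value in TLR4 null kidneys, from -0.61 to -0.24, and 2 of them passed over all probe sets. In WT kidneys their values ran from -0.30 to 0.12 and none passed.

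The 250 bases before the start of Timp2, at chr11:118355412-118355661 on the minus strand, are shown for contrast with those of Adamts1 and Timp1. They are 68% G or C and held none of the motifs searched, so no letter is in capitals. The letters GCGTG, which were not searched, stand in this window and in those of Adamts1 and Timp1.
Timp2: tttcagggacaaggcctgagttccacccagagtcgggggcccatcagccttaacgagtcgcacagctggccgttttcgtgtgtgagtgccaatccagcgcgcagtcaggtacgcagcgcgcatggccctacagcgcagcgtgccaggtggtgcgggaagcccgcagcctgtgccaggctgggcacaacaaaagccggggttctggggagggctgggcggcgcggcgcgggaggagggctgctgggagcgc

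Timp3, which binds to the matrix and blocks ADAMTS enzymes and the sheddase ADAM17, differed by little. Its brightest probe set had signals of 8152, 8543 and 8478 in TLR4 null ischemic kidneys, against 7234, 8285 and 7065 in TLR4 null sham kidneys. The WT ischemic arrays read 7943, 8798 and 7292, against 6229, 7181 and 6827 in WT sham kidneys. The groups overlapped in TLR4 null kidneys and not in WT kidneys. The difference was 0.16 ± 0.09 log2 units in TLR4 null (adjusted p = 0.235) and 0.25 ± 0.09 in WT kidneys (adjusted p = 0.0655), and the WT value passed in 5 of 25 alternatives, such as that without WT ischemic replicate 3 (0.31, adjusted p = 0.0332). All 4 probe sets of Timp3 had a positive value in both genotypes. One of them passed over all probe sets in both, with 0.44 ± 0.10 in TLR4 null (adjusted p = 0.00786) and 0.38 ± 0.10 in WT kidneys (adjusted p = 0.0186).

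**Figure D2:**
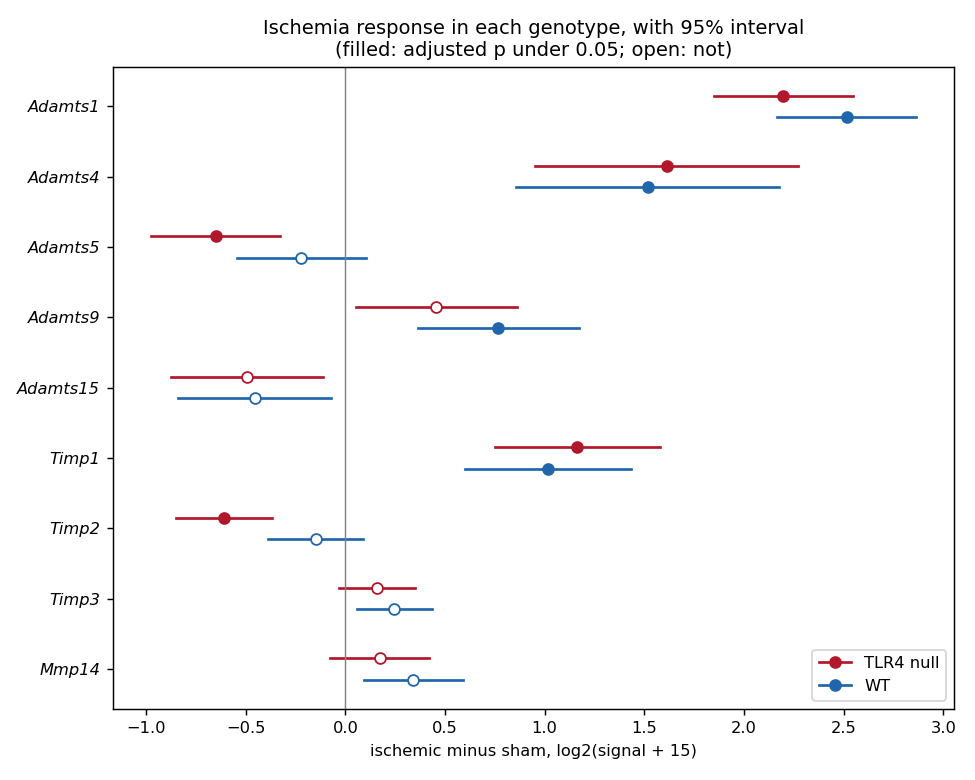
Difference between ischemic and sham kidneys on log2(signal + 15) for each gene, TLR4 null above WT, with its 95% interval from the limma fit (n = 3 arrays per group). Filled points are called: 5 genes in TLR4 null and 4 in WT kidneys.

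The question of whether the genotypes responded differently was tested by the interaction, the TLR4 null response minus the WT response. It called 0 of the 9 genes and 0% of all 14316, with 1 of the 9 under an unadjusted p of 0.05. That gene was Timp2, at -0.46 ± 0.16 log2 units (95% interval -0.80 to -0.12, adjusted p = 0.654). Adamts5 had -0.43 ± 0.21 (interval -0.89 to 0.03, adjusted p = 0.795) and Adamts1 -0.32 ± 0.23 (interval -0.81 to 0.17, adjusted p = 0.864). The calls of Adamts5 and Timp2 in TLR4 null kidneys and of Adamts9 in WT kidneys are therefore not shown to differ between the genotypes. Without TLR4 null ischemic replicate 3, 15 genes of the whole table passed this test, and none of them was one of the 9.

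Because no interaction passed, the responses were also averaged over both genotypes, a comparison added after the data had been seen. That no interaction passed does not show that the genotypes responded alike. All 9 genes were then called, 6 higher and 3 lower, against 33.1% of all genes called, 13.7% higher and 19.4% lower. As the 9 genes were chosen with earlier results of these data known, this count does not test the set. Adamts1 rose by 2.36 ± 0.12 log2 units, Adamts4 by 1.56 ± 0.22, Timp1 by 1.09 ± 0.14 and Adamts9 by 0.61 ± 0.13. Mmp14 (0.26 ± 0.08, adjusted p = 0.0253) and Timp3 (0.20 ± 0.06, adjusted p = 0.0212) joined them with small rises. Adamts15 fell by 0.47 ± 0.13 (adjusted p = 0.00912), Adamts5 by 0.44 ± 0.11 (adjusted p = 0.00538) and Timp2 by 0.38 ± 0.08 (adjusted p = 0.00174). Taken by genotype, Adamts5 and Timp2 were called lower in TLR4 null kidneys (-0.65 and -0.61) and not in WT kidneys (-0.22 and -0.15). Their averages therefore do not show a fall in WT kidneys. The averaged calls of 7 genes held in 24 of 24 alternatives, those of Mmp14 in 19 and of Timp3 in 18. Mmp14 lost its call without WT ischemic replicate 3, WT sham replicate 1 or 3, or TLR4 null sham replicate 2 (adjusted p = 0.0576 to 0.0669), and with the mean of its probe sets (0.21, adjusted p = 0.182). Timp3 lost its call without WT ischemic replicate 2, WT sham replicate 1, or TLR4 null sham replicate 1 or 3 (adjusted p = 0.0526 to 0.0588), and with median scaling (0.0775) or no trend (0.0621).

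Some markers of other cells moved with surgery as well, beside 21.6% of all genes called in TLR4 null and 19.7% in WT kidneys. Of 5 measured neutrophil markers 2, S100a8 and S100a9, were higher in both genotypes, while Csf3r, Ngp and Ltf had negative values that did not pass, so that the median of the 5 was -0.0797 log2 units in TLR4 null and -0.22 in WT kidneys. The summed signal of the 5, carried by S100a8 and S100a9, was 536 to 963 in TLR4 null ischemic and 370 to 573 in TLR4 null sham kidneys, and 873 to 1405 in WT ischemic and 473 to 682 in WT sham kidneys. Of 8 endothelial markers 3 were called lower in TLR4 null and 1 in WT kidneys, while 3 had positive values in TLR4 null and 2 in WT kidneys. The median of the 8 was -0.26 log2 units in TLR4 null and -0.16 in WT kidneys. Their sums were 2625 to 2887 in TLR4 null ischemic and 3220 to 3422 in TLR4 null sham kidneys, and 3137 to 3612 in WT ischemic and 3513 to 4206 in WT sham kidneys. The part of the neutrophil and endothelial markers in the members' responses was not tested.

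Between the genotypes the clearest difference lay in ischemic kidneys, where Timp2 and Adamts5 were lower in TLR4 null than in WT. These were 2 of the 9 genes, against a background of 0.657% of all genes called, 0.14% higher and 0.517% lower. Timp2 was at 390.1 ± 24.8 in TLR4 null ischemic and 647 ± 60.04 in WT ischemic kidneys (mean ± SD, n = 3 each). Adamts5 was at 148 ± 21.2 in TLR4 null ischemic and 259 ± 25.1 in WT ischemic kidneys (mean ± SD, n = 3 each). Neither gene's arrays overlapped. Timp2 was lower by 0.71 ± 0.11 log2 units, a ratio of 0.613 (adjusted p = 0.0116), and Adamts5 by 0.75 ± 0.15, a ratio of 0.593 (adjusted p = 0.0363).

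The size of this difference was steadier than its call. Over 25 alternatives Timp2 stayed between -0.77 and -0.45 and was called in 19, and Adamts5 stayed between -0.85 and -0.61 and was called in 10. Without WT ischemic replicate 3 neither was called (adjusted p = 0.0703 for Timp2 and 0.175 for Adamts5). Adamts5 also lost its call without WT ischemic replicate 1 (0.0577) or 2 (0.0987), TLR4 null ischemic replicate 1 (0.0522), 2 (0.0931) or 3 (0.0563), WT sham replicate 1 (0.0501) or TLR4 null sham replicate 3 (0.0539), all adjusted p-values. By probe set, all 5 of Timp2 were negative and 1 passed, from -0.71 to -0.14. The 3 of Adamts5 gave -0.88 ± 0.19 (adjusted p = 0.0646), -0.75 ± 0.15 (adjusted p = 0.0461) and -0.19 ± 0.18 (adjusted p = 0.783), so they disagreed in size. Over all probe sets 0.406% were called in this comparison.

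The other members were not called between ischemic kidneys. Timp1 was lower on every TLR4 null array, at 259 ± 21.3 in TLR4 null ischemic and 391 ± 102 in WT ischemic kidneys (SD, n = 3 each), a difference of -0.54 ± 0.19 log2 units (adjusted p = 0.280). Mmp14 was also lower on every TLR4 null array (-0.18 ± 0.12, adjusted p = 0.611). In all, 4 of the 9 genes had every TLR4 null ischemic array below every WT ischemic array and 0 had it above. Among all genes 14.7% were apart in this way, 7.63% below and 7.03% above. Adamts1 (-0.39 ± 0.16), Adamts9 (-0.39 ± 0.19), Adamts15 (-0.24 ± 0.18) and Adamts4 (-0.078 ± 0.31) overlapped between genotypes and gave negative values, and Timp3 gave 0.071 ± 0.089.

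In sham kidneys 0 of the 9 genes were called, against 0.314% of all genes, 0.0908% higher and 0.224% lower, and 2 of the 9 had an unadjusted p under 0.05 (limma). Timp1 had the largest value of the 9, at 107 ± 11.4 in TLR4 null sham and 185 ± 49.1 in WT sham kidneys (SD, n = 3 each). No arrays overlapped, and the difference was -0.69 ± 0.19 log2 units (adjusted p = 0.194). Adamts5 was also lower on every TLR4 null sham array (-0.32 ± 0.15, adjusted p = 0.536). These 2 of the 9 stand beside 16.7% of all genes whose sham groups were apart, 8.62% with TLR4 null below and 8.12% above. The fibroblast marker Col1a1 was called lower in TLR4 null sham kidneys (-1.83 ± 0.35, adjusted p = 0.0428, called in 12 of 25 alternatives). Its TLR4 null sham signals were 26.3, 61.4 and 41.3, beside 40th percentiles of 51.7, 40.3 and 45.5 on these arrays, so its size is not well fixed. The sum of the 7 fibroblast markers was 3661 to 3829 in TLR4 null sham and 4506 to 5515 in WT sham kidneys. In each genotype comparison 8 of the 9 genes had a negative value and Timp3 a positive one, but small values turned: in sham kidneys Mmp14 (-0.0075) did so under quantile normalization (0.029), median scaling (0.041), array weights and the fat score, and Adamts1, Adamts4 and Adamts9 without single arrays. In ischemic kidneys Timp3 turned with the fat score and Adamts4 without single arrays.

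**Figure D3:**
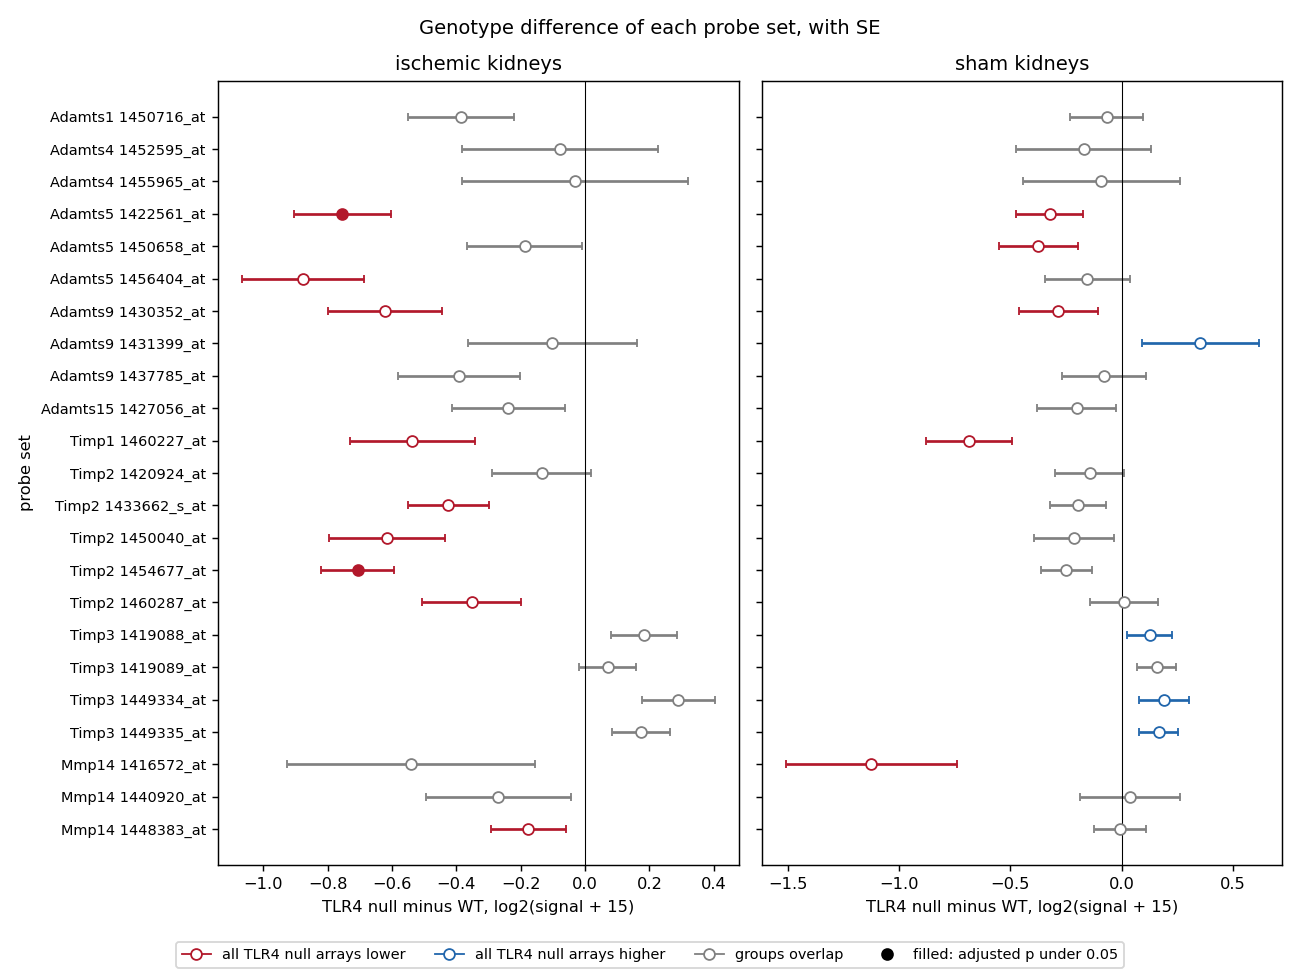
TLR4 null minus WT on log2(signal + 15) with its SE for each of the 23 probe sets past the filter, in ischemic (left) and sham (right) kidneys (n = 3 arrays per group). In ischemic kidneys the filled points are the brightest probe sets of Timp2 and Adamts5, and in sham kidneys no point is filled.

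Averaged over both surgeries, a comparison added after the data had been seen, 3 of the 9 genes were lower in TLR4 null kidneys and 0 higher, against 2.1% of all genes called, 0.615% higher and 1.49% lower. Timp2 fell by 0.48 ± 0.08 log2 units (adjusted p = 0.00611), Adamts5 by 0.54 ± 0.11 (adjusted p = 0.0170) and Timp1 by 0.61 ± 0.14 (adjusted p = 0.0323). They were called in 23, 19 and 14 of 24 alternatives in that order. Adamts5 lost its call without WT ischemic replicate 3 (adjusted p = 0.0577) or WT sham replicate 2 (0.0567). Timp1 lost its call without WT ischemic replicate 1 or 3, WT sham replicate 1 or 3, TLR4 null ischemic replicate 1, or TLR4 null sham replicate 2 or 3 (adjusted p = 0.0538 to 0.0962). With the fat score as a covariate neither held: Timp1 had -0.49 (adjusted p = 0.270) and Adamts5 -0.51 (adjusted p = 0.137). Timp1 was also lost with no filter (0.0589) or no trend (0.0941), Adamts5 with median scaling (0.0662) or no trend (0.0510), and Timp2 with median scaling (0.0609).

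A few markers of stromal and immune cells were also lower in TLR4 null ischemic kidneys. Of 7 fibroblast and pericyte markers 2 were called lower, the collagen chains Col1a1 (-1.84 ± 0.35 log2 units, adjusted p = 0.0342) and Col1a2 (-0.94 ± 0.19, adjusted p = 0.0368). Of the 3 TLR4 null ischemic signals of Col1a1 (80.7, 26.5 and 39.8) 2 lay under the 40th percentile of their array, so its size is not well fixed. The summed signal of the 7 was 2270 to 3444 in TLR4 null ischemic and 3290.2 to 5260 in WT ischemic kidneys, which overlap. Of 7 macrophage markers 1 was called lower, the complement subunit C1qa (-0.64 ± 0.13, adjusted p = 0.0342), and the sums were 1920 to 2020 in TLR4 null ischemic and 2178 to 2281 in WT ischemic kidneys. Of 5 neutrophil markers 0 were called, with 3 positive values and a median of 0.17. Of 8 endothelial markers 0 were called, with the sums given above. Of 4 measured fat markers 0 were called, though their median difference was -1.13 and the sums were 2377 to 9023 in TLR4 null ischemic and 4351 to 12754 in WT ischemic kidneys. With the fat score as a covariate Timp2 had -0.74 (adjusted p = 0.0582) and Adamts5 -0.72 (adjusted p = 0.148), and neither was called. Over all genes this covariate left 14 called in place of 94. The part of the stromal, immune and fat markers was not tested.

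These marker calls lean on single arrays too. Col1a1 lost its call without WT ischemic replicate 1 or 3 or TLR4 null ischemic replicate 2 (adjusted p = 0.0836 to 0.170). Col1a2 lost its call without any 1 of WT ischemic replicates 1 and 3, WT sham replicate 1, TLR4 null ischemic replicates 1 and 2 and each TLR4 null sham replicate (adjusted p = 0.0522 to 0.175). C1qa lost its call without any 1 of the 3 WT ischemic replicates, WT sham replicate 1, TLR4 null ischemic replicates 1 and 2 and TLR4 null sham replicate 3 (adjusted p = 0.0519 to 0.161).

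The levels of Adamts5 and Timp2 followed each other over the 12 arrays. After each gene's own mean was taken off, the mean absolute difference between them was 0.0836 log2 units, and each was the named gene nearest to the other. Next to Adamts5 came the complement protease C1s1 (0.108) and C1qa (0.113). Next to Timp2 came Serping1, the inhibitor of complement C1 (0.0875), and the membrane traffic protein Ehd3 (0.102). Adamts1 was nearest to the immediate early gene Ier2 (0.145), the cholesterol hydroxylase Ch25h (0.166) and the stress-induced transcription factor Ddit3 (0.177). Timp1 was nearest to the hyaluronan receptor Cd44 (0.184) and the transcription factors Stat3 (0.197) and Fosl2 (0.198). Adamts4 was nearest to Tm4sf1, a surface protein of endothelium (0.221), Tgif1 (0.230) and Slc25a24 (0.242), and Adamts9 to Usp22, Tnfrsf1a, the TNF receptor, and Foxn2 (0.146 to 0.156). These values describe the 12 arrays, which share the group differences.

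**Figure D4:**
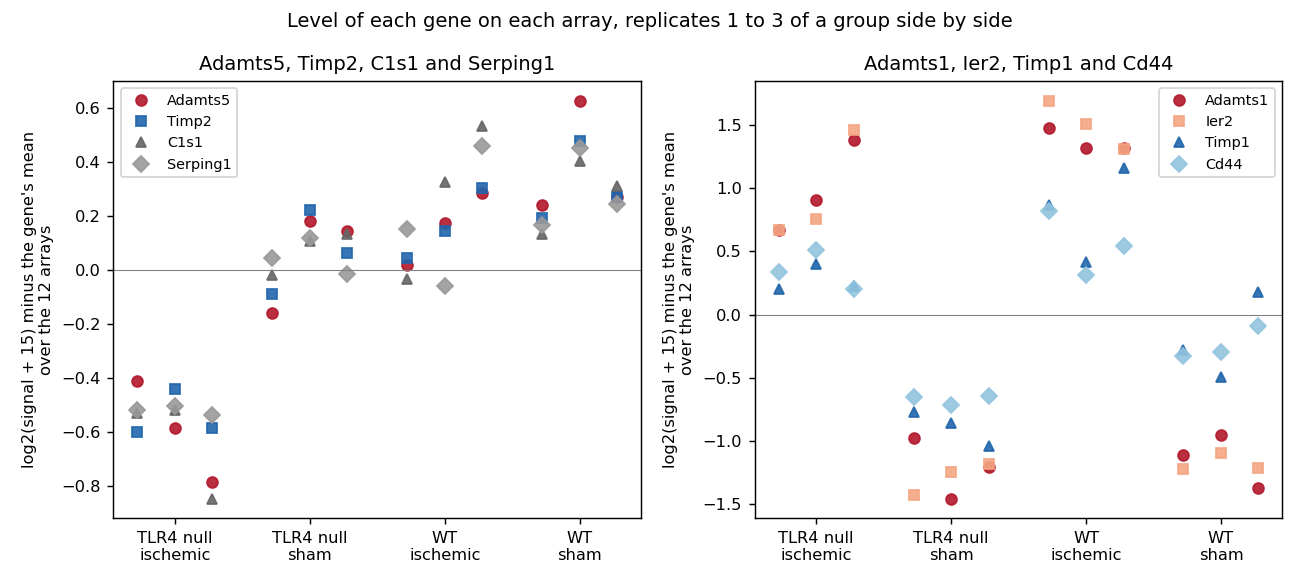
Level of each gene on each array as log2(signal + 15) minus the gene's mean over the 12 arrays, with the 3 replicates of a group side by side. Left, Adamts5 and Timp2 with 2 of their nearest genes, all below 0 on the 3 TLR4 null ischemic arrays; right, Adamts1 with Ier2 and Timp1 with Cd44, all above 0 on every ischemic array.

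Related genes were taken from fixed lists, and the ischemia counts of each list stand beside 21.6% of all genes called in TLR4 null and 19.7% in WT kidneys. Listed genes that were not measured had no probe set of their own past the filter. Of 14 other ADAMTS proteases 5 were measured, and 0 were called in either ischemia comparison; those with the smallest p were Adamts10 (-0.60 ± 0.24 log2 units in TLR4 null and -0.40 ± 0.24 in WT kidneys) and Adamts16 (0.11 ± 0.17 and -0.30 ± 0.17). At an unadjusted p under 0.05 Adamts10 in TLR4 null kidneys would have passed. Of 7 ADAMTS-like proteins 6 were measured, and Adamtsl2, a binding partner of fibrillin, was lower in WT kidneys (-0.82 ± 0.19, adjusted p = 0.00731) with -0.26 ± 0.19 in TLR4 null kidneys. Of 19 other matrix metalloproteinases 11 were measured and 1, the stromelysin Mmp10, was higher, in both genotypes. Its signals were 175, 149 and 90.6 in TLR4 null ischemic kidneys, against 13.8, 9.72 and 18.5 in TLR4 null sham kidneys, and 190.4, 106 and 188 in WT ischemic kidneys, against 21.1, 44.04 and 35.5 in WT sham kidneys. All 6 sham signals lay under the 40th percentile of their array, so Mmp10 passed the filter only through the ischemic arrays, and its size is not fixed. The size ran from 1.398 to 3.204 log2 units in TLR4 null and from 1.23 to 2.25 in WT kidneys over 25 alternatives. All 25 kept the call, but as Mmp10 passed the filter only through its ischemic arrays, its call and its count here are description only. Mmp2, the enzyme that Mmp14 and Timp2 act on, gave -0.027 ± 0.24 in TLR4 null and -0.20 ± 0.24 in WT kidneys and was not called.

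Of 8 other regulators, all measured, 2 rose in both genotypes. The cell-surface proteoglycan Sdc4 rose by 0.93 ± 0.08 log2 units in TLR4 null and 0.75 ± 0.08 in WT kidneys. Serpinh1, a collagen chaperone and not a protease inhibitor, rose by 1.55 ± 0.26 in TLR4 null and 2.11 ± 0.26 in WT kidneys. In TLR4 null kidneys 2 regulators fell, Lrp1, an endocytic receptor that clears ADAMTS enzymes and TIMP3, by 0.66 ± 0.16 (adjusted p = 0.00664) and the membrane-bound inhibitor Reck by 0.63 ± 0.21 (adjusted p = 0.0432). The WT values were -0.22 ± 0.16 for Lrp1 and -0.15 ± 0.21 for Reck, and the interaction passed for neither. Reck lost its call without any 1 of the 3 WT ischemic or 3 TLR4 null ischemic replicates, WT sham replicate 3, or TLR4 null sham replicate 1 or 2 (adjusted p = 0.0511 to 0.173). Timp4, the remaining TIMP, was not called (-0.46 ± 0.38 in TLR4 null and -0.0996 ± 0.38 in WT kidneys).

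Of 10 ADAM sheddases and their partners 9 were measured. Rhbdf1, the iRhom that escorts ADAM17, rose by 0.48 ± 0.08 log2 units in TLR4 null and 0.64 ± 0.08 in WT kidneys. Adam9 fell by 0.44 ± 0.10 in TLR4 null (adjusted p = 0.00481) and 0.30 ± 0.10 in WT kidneys (adjusted p = 0.0421). The WT call of Adam9 was lost without any 1 of 9 arrays, the 3 WT ischemic, WT sham replicates 1 and 2, TLR4 null ischemic replicate 1 and the 3 TLR4 null sham ones (adjusted p = 0.0511 to 0.131). Adam17 itself was not called (-0.32 ± 0.15 in TLR4 null and -0.15 ± 0.15 in WT kidneys).

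Of 20 proteoglycan and hyaluronan genes 16 were measured, and in each genotype 3 rose and 1 fell. Of all genes 21.6% were called in TLR4 null and 19.7% in WT kidneys. The matricellular protein Thbs1 rose by 1.69 ± 0.14 log2 units in TLR4 null and 2.06 ± 0.14 in WT kidneys, the cell-surface proteoglycan Sdc1 by 1.11 ± 0.24 (0.716 without probe sets that may match several transcripts) and 1.55 ± 0.24, and Cd44 by 1.02 ± 0.15 and 0.79 ± 0.15. The hyaluronidase Hyal2 fell by 0.56 ± 0.11 in TLR4 null and 0.50 ± 0.11 in WT kidneys, a WT call that median scaling removed (adjusted p = 0.0943). The proteoglycans best known as ADAMTS substrates were not called: Vcan, versican, gave 0.15 ± 0.34 in TLR4 null and 0.14 ± 0.34 in WT kidneys, and Acan, aggrecan, gave -0.13 ± 0.26 and 0.14 ± 0.26. Between ischemic kidneys 1 of the 16 was called, the basement membrane linker Nid1, lower in TLR4 null by 1.09 ± 0.17 (adjusted p = 0.00950), and this call was lost without WT ischemic replicate 3 (adjusted p = 0.0616).

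**Figure D5:**
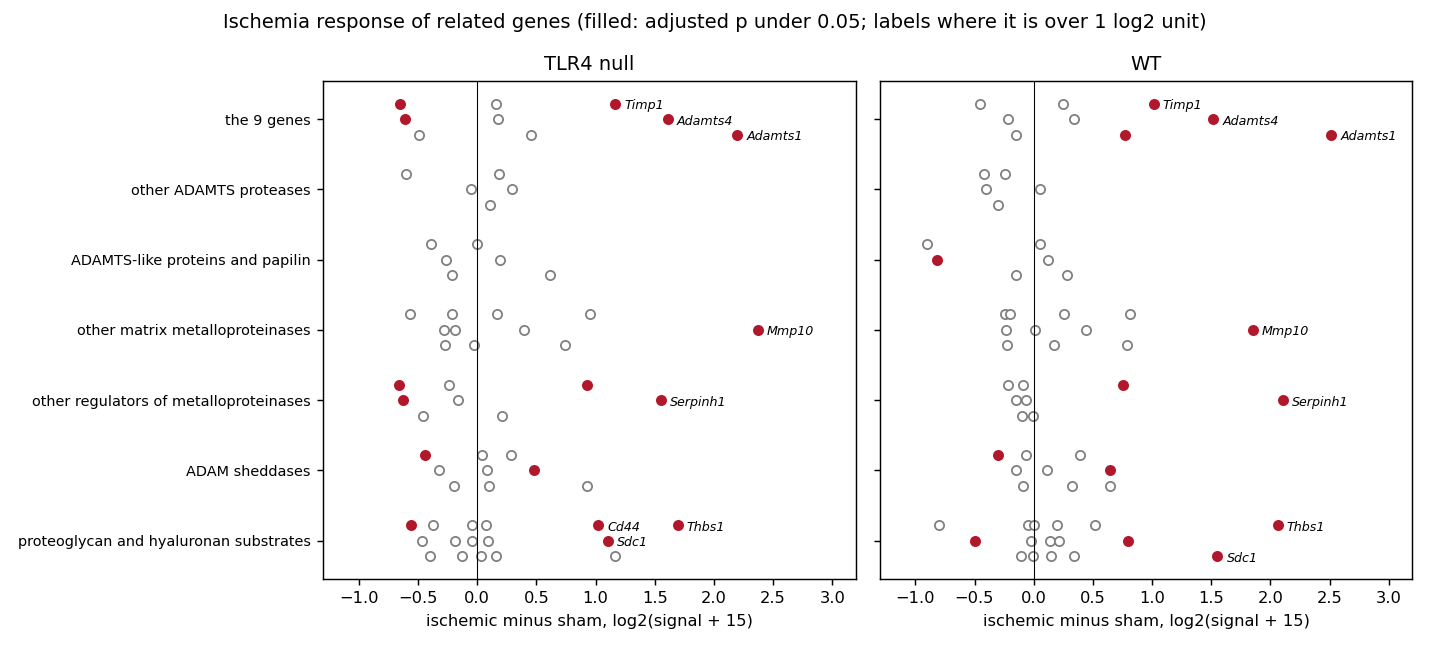
Difference between ischemic and sham kidneys on log2(signal + 15), 1 point per gene, for the 9 genes and 6 lists of related genes in TLR4 null (left) and WT (right) kidneys (n = 3 arrays per group). Filled points are called, and Adamts1, Adamts4, Timp1, Mmp10, Serpinh1, Thbs1 and Sdc1 are above 1 in both genotypes.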

How the data were processed

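The deposited table holds signal intensities of 45101 probe sets on 12 arrays, which the authors made with MAS5, credited here to the submitters' processing notes; its version is not given in the sources used here. Each array had the same trimmed mean of 250.002 over its middle 96% of probe sets, and that scaling was kept. The platform annotation named 1 gene for 34958 probe sets, several for 932 and none for 9211; 34754 of the 34958 matched RefSeq (GRCm38.p6) by Entrez ID and 204 did not.

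Values were log2(signal + 15), 15 being the rounded 20th percentile of all signals. Probe sets above their array's 40th percentile on at least 3 arrays were kept (30304), the brightest stood for its gene (14316 genes), and limma 3.58.1 (R 4.3.3; lmFit and trended eBayes) was fitted over all 12 arrays and 4 group means. Tests were two-sided with Benjamini-Hochberg adjustment over all genes, and calls were made at 0.05. Member probe sets were tested separately, with adjustment over all 30304 probe sets. The method was checked on simulated data. Figures and promoter searches used Python 3.11.15.

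Members, lists and tests were chosen with earlier results of these data known. All 9 members were named; of each list, members called in an ischemia comparison, up to 4, and otherwise the 2 with the smallest p; and the 3 genes nearest each member called after ischemia. Mmp2, Timp4, Adam17, Vcan, Acan, Nid1 and the named markers fall outside this rule and were chosen after their values were seen, as were the averaged comparisons and all motifs other than TGANTCA and TGACGTCA. Arrays of a group are separate mice per the labels. Alternatives were other scalings, pseudocounts of 1 and 60, other filters and probe set rules, no trend, array weights, only the groups compared, a replicate block, a fat score and leaving out each array.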

Additional observations from a re-analysis of the deposited data

How the results depend on the processing

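Of the 9 genes, Adamts1, Adamts4 and Timp1 kept their ischemia calls in both genotypes, and Adamts9 in WT and Adamts5 and Timp2 in TLR4 null kidneys, in 25 of 25 alternatives. The number of the 9 called in WT kidneys, 4, was 7 with array weights, 9 averaged over genotypes and 4 to 5 without single arrays; in TLR4 null kidneys, 5, it was 9 averaged and 5 to 7 without single arrays. Between sham kidneys 0 became 3 averaged over surgeries. Between ischemic kidneys 2 became 0 with median scaling, the mean of probe sets, no trend, only the groups compared or the fat score, 1 with no filter or the replicate block, and 0 to 2 without single arrays; the cause was not tested. Member probe sets called after ischemia, 11, were 9 to 13 without single arrays. Replicate numbers did not pair the arrays: 1 of 18 same-numbered pairs deviated together with r over 0.1 (-0.06 to 0.10), so the replicate block (Adamts5 between ischemic kidneys, adjusted p = 0.0559) is given only here.

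Reversals touched uncalled values: the interaction of Timp3 (0.0633 quantile, 0.0198 mean of probe sets), Mmp14 (0.0364 mean of probe sets) and Adamts15 (0.0298 array weights, 0.0051 fat score), Mmp14 between sham kidneys (0.0292 quantile, 0.0410 median scaling, 0.0292 array weights, 0.0132 fat score) and Timp3 between ischemic kidneys (-0.0147 fat score). Without single arrays the interaction ran from -0.22 to 0.28 for Adamts4, -0.0525 to 0.32 for Timp1 and -0.17 to 0.13 for Adamts15; sham kidneys from -0.19 to 0.0542 for Adamts1, -0.34 to 0.0889 for Adamts4, -0.18 to 0.0946 for Adamts9 and -0.0526 to 0.0558 for Mmp14; ischemic kidneys from -0.39 to 0.11 for Adamts4. Over all genes, WT ischemia called 1314 higher and 1501 lower, and 1241 and 548 with median scaling; TLR4 null ischemia called 1412 higher and 1676 lower, and 1100 and 920 with median scaling. Apart from the averages, the 45 genes called between sham kidneys ran from 2 to 159, and the 94 between ischemic kidneys from 10 to 245.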
